A study of Mus musculus with 4 samples.

Results

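Antibody genes are described here through the probes of the immunoglobulin heavy, kappa and lambda loci on arrays of mouse colon RNA. Spots were taken by their mm9 position in a window over each locus, and when their signal was well above background on at least 1 of the 4 arrays. The probes so chosen span chr12:114403580-117299013 (heavy), chr6:67505984-70716072 (kappa) and chr16:19061905-19244119 (lambda). This gave 238 of the 43020 non-control spots: 138 in the heavy window, 93 in the kappa window and 7 in the lambda window. They make up 220 probes, since 2 heavy-locus probes were spotted 10 times each. Another 52 spots in the windows were well above background on 0 arrays and stayed out. Of the 220 probes, 17 lie in or beside constant regions, 163 are described as variable segments or rearranged chains, 27 have no immunoglobulin name or no description, and 13 belong to other genes.

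The colons of 3 C57BL/6 mice were pooled for every array. The 4 pools were X-KO mice, which lack Pla2g10 (it encodes the secreted phospholipase A2 of group X), on day 7 of 1% (w/v) dextran sulfate sodium (DSS) in drinking water (KO DSS); wildtype mice after the same DSS course (WT DSS); untreated X-KO mice (KO naive); and untreated wildtype mice (WT naive). DSS damages the epithelium of the colon, and colitis follows. The labels put "9 weeks" under sex and "Male" under age, which are taken as swapped, while the growth protocol gives 8 weeks. The making of the Pla2g10 allele was not given in the sources used here. With 1 array per pool there is no spread between mice, so a difference between 2 arrays has no test, and no SD can be given.

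An antibody is built of 2 kinds of chain, heavy and light, and the light chain comes from either the kappa or the lambda locus. Each B cell brings 1 variable segment of a locus near the constant region by rearranging the DNA. A clone of plasma cells thus transcribes a single heavy and a single light combination in large amounts. Class switching then exchanges the heavy constant region: mu and delta mark unswitched B cells, the gamma regions give IgG, epsilon gives IgE and alpha gives IgA, the antibody that plasma cells of the gut lamina propria secrete in bulk. A probe in a constant region therefore reads a whole isotype, and a probe in a variable segment reads the clones that chose it. Whether a probe also reads other regions or segments of like sequence was not tested.

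Constant region and variable segment probes that carry the results are shown as deposited, each 60 bases long and written in the direction of the transcript. The gamma 1 and gamma 3 probes are shown because gamma 3 was measured only in the KO pools; their longest shared run, in capitals, is 13 bases, at chr12:114567263-114567322 and chr12:114597942-114598001 on the minus strand:
gamma 1 (i): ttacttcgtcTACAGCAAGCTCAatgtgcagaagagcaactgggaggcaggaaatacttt
gamma 3: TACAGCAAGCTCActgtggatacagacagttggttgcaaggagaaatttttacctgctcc

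The J-C lambda 3 probe and the first lambda constant 2 probe, at chr16:19065462-19065521 and chr16:19198651-19198710 on the minus strand, are shown because they share a run of 42 bases (in capitals), so their values are not independent:
J-C lambda 3: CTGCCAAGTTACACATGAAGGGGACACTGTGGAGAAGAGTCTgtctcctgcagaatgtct
lambda constant 2 (i): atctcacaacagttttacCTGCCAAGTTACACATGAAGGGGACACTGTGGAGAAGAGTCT

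5 variable segment probes, named as in the files, are shown because 1 pool stood far above the other 3. They lie at chr12:115076801-115076860 (X87746, minus strand), chr6:68387766-68387825 (L09033, plus strand), chr6:68387858-68387917 (AF468836, plus strand), chr6:70024157-70024216 (S60946, minus strand) and chr6:68812259-68812318 (DQ125310, minus strand):
X87746: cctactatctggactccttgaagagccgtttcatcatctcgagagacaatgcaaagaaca
L09033: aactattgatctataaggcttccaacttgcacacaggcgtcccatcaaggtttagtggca
AF468836: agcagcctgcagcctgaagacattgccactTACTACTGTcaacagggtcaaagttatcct
S60946: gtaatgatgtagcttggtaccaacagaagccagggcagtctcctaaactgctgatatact
DQ125310: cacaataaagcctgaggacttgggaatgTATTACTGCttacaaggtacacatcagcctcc

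Capitals in these 5 mark the motif TANTANTGN, which can spell the tyrosine-tyrosine-cysteine codons at the end of the framework before the third complementarity-determining region. Read as printed, it was found in 37 of 163 variable probes (22.7%), against 353 of 28597 probes outside the loci (1.23%). On the opposite strand it was found in 3 variable probes (1.84%) and 1.11% of the others. It was present in 29 of 80 kappa, 8 of 81 heavy and 0 of 2 lambda variable probes.

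Signals were divided by the 75th percentile of their array (relative signal, 1 at that percentile), and they serve to compare pools for 1 probe, never probes with each other. Among 378 probes spotted repeatedly, the SD of log2 signals within an array was 0.06 to 0.07 at the median. That SD covers spotting and hybridization, not mice. The targeted gene's probe read 0.993 in KO DSS, 19.0 in WT DSS, 1.69 in KO naive and 15.8 in WT naive, so both KO pools were below both WT pools. All 8 colon epithelium markers were well above background on all 4 arrays, and 67.7% to 70.4% of spots were well above background per array.

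Most heavy constant region probes were higher in KO pools, and the gamma regions carried the widest differences, most of all with DSS. Gamma 3 and epsilon entered through the KO pools in which they were measured, so counts are given for the 15 of 17 constant region probes that all 4 arrays measured well above background. In the DSS pools, KO exceeded WT by at least 2-fold in 10 of the 15 heavy and light chain probes, and 0 were 2-fold lower. Among the 10 heavy probes this held for 6. Of all probes so measured, 3.53% were 2-fold higher and 1.22% lower. Without DSS, 3 of the 15 were 2-fold higher in KO and 0 lower, where 0.489% of all such probes were 2-fold higher and 0.272% lower. In these RNA pools, fewer cells of a type and less RNA per cell cannot be told apart.

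Gamma 3, the constant region of IgG3, had a relative signal of 0.440 in KO DSS, 0.0122 in WT DSS, 0.184 in KO naive and 0.0146 in WT naive. Both WT values were not well above background. The WT DSS value exceeded the lowest well-measured signal of its array (0.0113) and was used as read, which put KO at least 36.0-fold higher with DSS. For WT naive the lowest well-measured signal of the array (0.0164) was used instead, which put KO at least 11.2-fold higher without DSS. Both bounds hold only on the scale used here. The size depends on the background correction: under normexp with quantile normalization the log2 ratio of KO over WT was 3.33 with DSS (5.17 on the scale used here) and 2.19 without it (3.66). Such a bound takes the higher of the array's lowest well-measured signal and the dim probe's own value, here and below.

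Both gamma 2a probes, described in the files as serum IgG2a, had their highest value in KO DSS. The first read 4.20 in KO DSS, 0.567 in WT DSS, 1.17 in KO naive and 0.729 in WT naive. The second read 1.29 in KO DSS, 0.157 in WT DSS, 0.306 in KO naive and 0.219 in WT naive. KO was thus 7.42-fold and 8.22-fold WT with DSS, and the log2 ratios of KO over WT were 2.89 and 3.04 with DSS and 0.68 and 0.48 without it. C57BL/6 mice carry a gamma 2c gene in place of gamma 2a, and the RefSeq order of the locus has Ighg2c there.

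The probe described only as gamma polypeptide, which lies between the gamma 2a and gamma 1 probes where RefSeq places Ighg2b, read 2.02 in KO DSS, 0.315 in WT DSS, 0.596 in KO naive and 0.391 in WT naive. Its KO DSS value was 6.43-fold that of WT DSS. The 3 probes of these neighbouring gamma regions ranked the pools alike: KO DSS highest, then KO naive, WT naive and WT DSS.

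Gamma 1, the constant region of IgG1, was higher in KO both with and without DSS. The first gamma 1 probe read 0.559 in KO DSS, 0.159 in WT DSS, 0.569 in KO naive and 0.199 in WT naive. The second, whose accessions in the files also hold a gamma 2c transcript, read 0.167 in KO DSS, 0.0361 in WT DSS, 0.0789 in KO naive and 0.0402 in WT naive. The first put both KO pools at nearly the same level, while the second was 2.12-fold higher in KO DSS than in KO naive.

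Mu and delta, the constant regions of unswitched B cells, differed less between KO and WT with DSS than the gamma probes, at log2 ratios of 0.54 and 1.22, but not without it, at 0.96 and 0.76. Mu, averaged over 10 spots with a within-array SD of 0.09 to 0.15 (log2), read 0.312 in KO DSS, 0.215 in WT DSS, 0.198 in KO naive and 0.102 in WT naive. It was the only heavy constant probe at least 2-fold higher with DSS in WT (2.10-fold), and in KO the DSS pool was 1.57-fold the naive pool. Delta read 0.210 in KO DSS, 0.0903 in WT DSS, 0.232 in KO naive and 0.137 in WT naive.

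The epsilon probe, for IgE, was well above background only in KO DSS, at 0.0360. The WT DSS, KO naive and WT naive values were 0.00334, 0.00323 and 0.00349, all not well above background. On the scale used here, KO DSS was thus at least 3.19-fold above WT DSS and at least 2.34-fold above KO naive. Under normexp with quantile normalization the log2 ratio of KO over WT with DSS was 1.14, against 3.43 as measured here. The gene of the epsilon-binding receptor chain, Fcer1a, read 0.0263 in KO DSS, with only values not well above background in the other 3 pools. Both probes passed the detection rule through KO DSS alone, so both had to be highest there. A link between the 2 was not tested.

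The 3 probes at the alpha end of the heavy locus differed by 1.52-fold at most between KO and WT. The files name them Igh-VJ558, but they lie between the Tmem121 and epsilon probes, where RefSeq orders Igha. The first read 133 in KO DSS, 144 in WT DSS, 169 in KO naive and 133 in WT naive. The second read 90.0 in KO DSS, 86.1 in WT DSS, 103 in KO naive and 81.5 in WT naive. The third read 13.0 in KO DSS, 8.52 in WT DSS, 9.65 in KO naive and 8.35 in WT naive. KO over WT was -0.11, 0.06 and 0.61 on the log2 scale with DSS and between 0.21 and 0.34 without it, and 0 spots were saturated. With DSS, the first turned to 0.09 under quantile normalization and the second to -0.03 under median scaling.

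**Figure D1:**
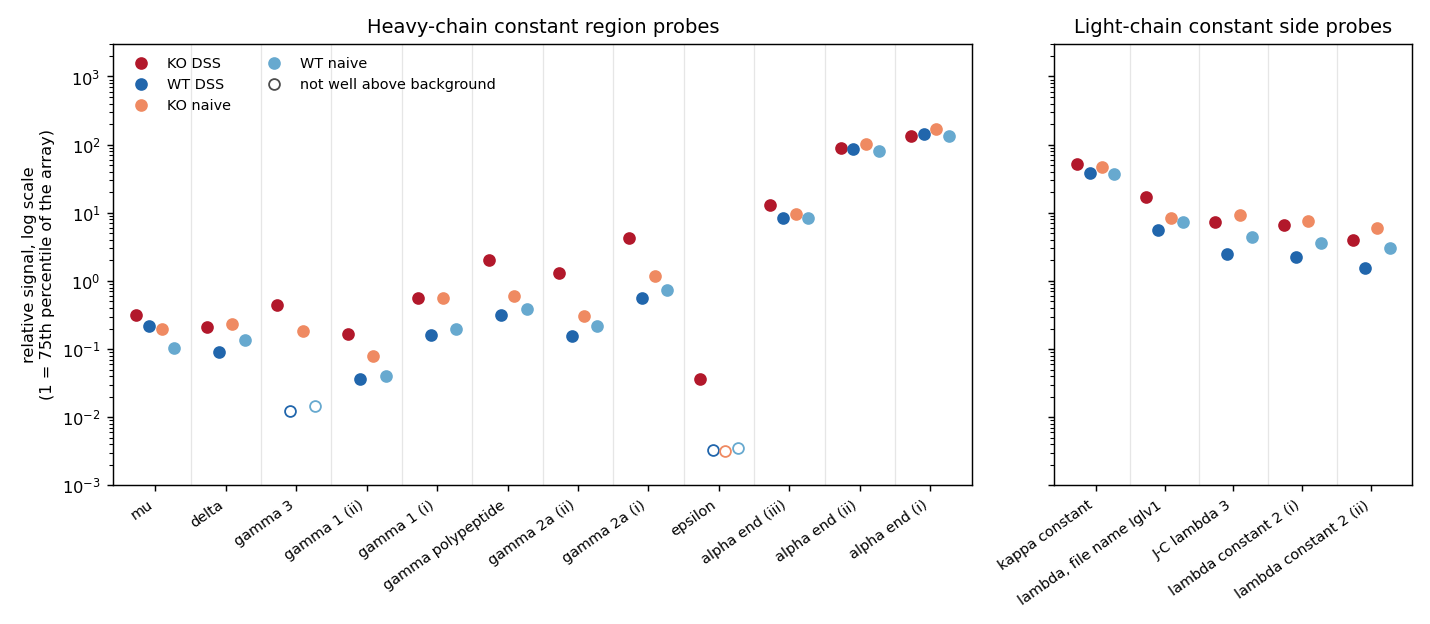
Relative signal (log scale, 1 = 75th percentile of the array) of the 12 heavy and 5 light constant side probes in the KO DSS, WT DSS, KO naive and WT naive pools, 1 point per array, open where not well above background. KO DSS is highest in the gamma probes apart from the first gamma 1 probe, where KO naive is level with it, and gamma 3 has open points in both WT pools; heights of different probes are not comparable.

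Kappa, the light chain most mouse antibodies carry, had a constant region signal of 51.6 in KO DSS, 39.0 in WT DSS, 46.7 in KO naive and 37.2 in WT naive. Both KO pools lay above both WT pools, by 1.32-fold with DSS and 1.26-fold without it. The log2 ratio of DSS over naive was 0.14 in KO and 0.07 in WT, and the WT ratio turned to -0.18 under quantile normalization.

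Lambda was higher in KO in every immunoglobulin probe of the locus. J-C lambda 3 read 7.21 in KO DSS, 2.46 in WT DSS, 9.39 in KO naive and 4.35 in WT naive. The lambda constant 2 probes read 6.56 and 3.96 in KO DSS, 2.26 and 1.53 in WT DSS, 7.48 and 6.00 in KO naive and 3.66 and 3.01 in WT naive. In these 3 probes the KO pools were 2.58-fold to 2.93-fold the WT pools with DSS and 1.99-fold to 2.16-fold without it, and the DSS pool was below the naive pool in both genotypes.

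The probe named Iglv1, which lies beyond J-C lambda 3 on the side away from the variable segments, read 17.0 in KO DSS, 5.68 in WT DSS, 8.46 in KO naive and 7.23 in WT naive. Unlike the lambda 2 and 3 probes it was highest in KO DSS, and its KO over WT fold was 2.99 with DSS against 1.17 without it. The lambda variable probe AY679096, placed between the Iglv1-named and lambda constant 2 probes, had the same layout, with 7.37 in KO DSS, 2.35 in WT DSS, 2.88 in KO naive and 2.38 in WT naive. The other lambda variable probe, S79427, read 0.0636 in KO DSS, 0.0229 in WT DSS, 0.0561 in KO naive and 0.0232 in WT naive.

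The lambda locus and Pla2g10 share chromosome 16, with 5.35 Mb between the Pla2g10 probe and the nearest lambda probe. The 6 lambda immunoglobulin probes had a median KO over WT log2 ratio of 1.54 with DSS (range 1.37 to 1.65) and 1.01 without it (range 0.23 to 1.27). The 346 other kept probes within 10 Mb of Pla2g10 had medians of -0.11 and 0.04, close to -0.08 and 0.02 over all kept probes. A530030E21Rik, a gene that is no immunoglobulin and lies in the lambda window, read 21.7 in KO DSS, 23.0 in WT DSS, 26.1 in KO naive and 23.5 in WT naive.

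Variable segments leaned the same way as the constant regions but scattered widely. A probe that passed the detection rule through a single high pool had to differ, so counts are given for the 141 variable probes well above background on all 4 arrays, of 163. With DSS, 35 of these (24.8%) were at least 2-fold higher in KO and 6 lower, where 3.53% of all probes measured on 4 arrays were higher and 1.22% lower. Without DSS, 19 were at least 2-fold higher in KO and 4 lower, where 0.489% of all such probes were higher and 0.272% lower. The heavy variable median of KO over WT was 0.53 with DSS and 0.14 without it (log2, 67 probes), and the kappa variable median was 0.60 and 0.22 (72 probes).

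DSS over naive leaned higher in KO among the same 141 probes, while in WT the heavy and kappa medians differed in sign. In KO, 19 were at least 2-fold higher with DSS and 9 lower, against 4.29% and 4.36% of all probes measured on 4 arrays. In WT, 9 were higher and 11 lower, against 2.34% and 4.27%. The heavy variable medians were 0.35 in KO and -0.13 in WT, and the kappa variable medians were 0.51 in KO and 0.26 in WT, beside -0.12 in KO and -0.03 in WT over all probes measured on 4 arrays.

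**Figure D2:**
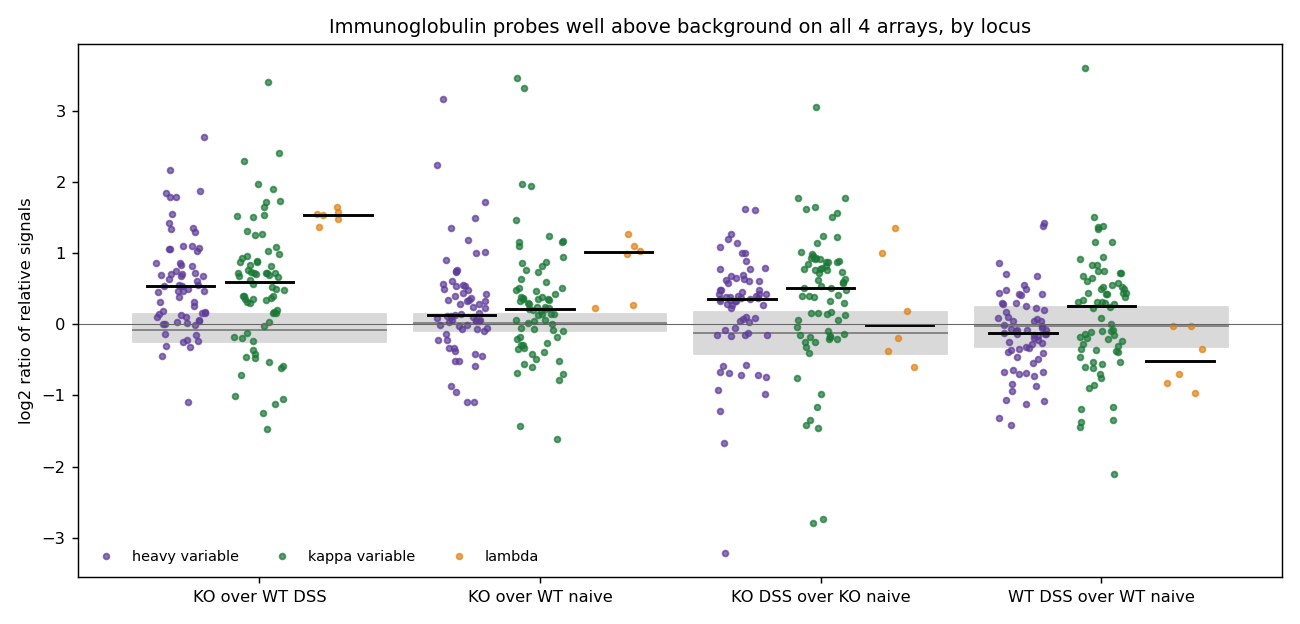
Log2 ratio of relative signals for each heavy variable, kappa variable and lambda probe well above background on all 4 arrays, in the 4 pairs of pools; black lines are medians, the grey band and line are the interquartile range and median of all probes measured on 4 arrays. Heavy and kappa medians sit above the grey line in KO over WT with DSS, at 0.53 and 0.60, with single probes from -1.48 to 3.41, and the lambda probes lie together near 1.54.

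Across all 156 immunoglobulin-named probes measured on 4 arrays, both KO pools lay above both WT pools in 63 (40.4%), against 5.15% of all probes so measured. The reverse, both KO pools below both WT pools, was seen in 0 of the 156, against 8.94% of all. By locus the count was 39 of 77 heavy, 18 of 73 kappa and 6 of 6 lambda probes, and by class 13 of 15 constant and 50 of 141 variable probes. The 2 constant probes outside that count were the first alpha end probe, whose KO DSS value was below WT DSS, and mu, whose KO naive value was below WT DSS.

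Both DSS pools lay above both naive pools in 34 of the 156 (21.8%), against 25.6% of all, and below in 10 (6.41%), against 38.4%. DSS was higher than naive in both genotypes in 48, against 28.6% of all, and lower in both in 25, against 42.8%. KO was higher than WT at both treatments in 86 of the 156, against 20.0% of all, and lower at both in 4, against 25.4%. The DSS response was larger in KO than in WT in 102 of the 156, against 40.5% of all, with a median difference of 0.40 on the log2 scale, where the median over all probes measured on 4 arrays was -0.09. This difference of responses leaves no residual between arrays and was not tested.

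The additive limma fit of genotype and treatment over all 28766 kept probes with values on every array had 1 residual degree of freedom. It called 0 probes for genotype and 0 for DSS at an adjusted p of 0.05, 0.00% of all probes in each direction. Among the 220 probes of the loci the smallest adjusted p in limma was 0.950 for genotype and 0.203 for DSS. At an unadjusted p under 0.05, limma listed 36 of the 220 for genotype (16.4%), 34 of them higher in KO, against 3.75% of all probes. For DSS it listed 28 (12.7%), against 19.2% of all. Fitted only on probes measured on 4 arrays, limma listed 58 of 186 for genotype at an unadjusted p under 0.05, against 5.06% of all, and called 0. For DSS that fit called 2 of the 186, X67198 and AF144972, both lower, where 2.01% of all were called higher and 3.46% lower. With a trend and robust variances, limma listed 54 of the 220 for genotype unadjusted, against 4.33% of all, and called 0. For DSS it called 2 higher and 3 lower, where 2.03% of all were called higher and 2.87% lower.

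**Figure D3:**
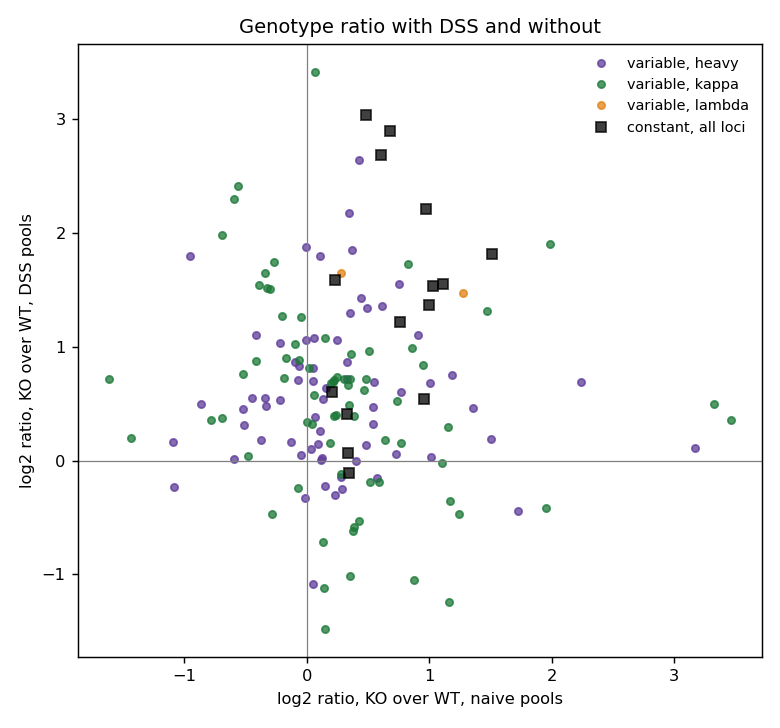
Log2 ratio of KO over WT without DSS (x axis) and with DSS (y axis) for the 156 immunoglobulin-named probes well above background on all 4 arrays, coloured by locus and class; the 2 axes share no array. In all, 86 probes lie at the upper right, above 0 on both axes, and 4 at the lower left.

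The size of the genotype ratio of a variable probe without DSS said little of its size with DSS. Across the 141 variable probes Pearson's r between the 2 ratios was -0.13 and Spearman's rho -0.16, and between the WT and KO DSS responses r was -0.10 and rho -0.20. These pairs of ratios share no array, but their points share pools, and probes are not independent replicates.

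The scatter among variable probes was wider than among other probes of like signal. Of the 141, 75 fell in the second quartile class of mean signal over all kept probes. There the interquartile range of KO over WT was 1.05 with DSS and 0.91 without it, against 0.52 and 0.30 in 7089 other probes of that class measured on 4 arrays. DSS over naive spread over 1.06 in KO and 0.93 in WT, against 0.67 and 0.60. In the third class, with 57 variable probes, KO over WT spread over 0.66 with DSS and 0.41 without it, against 0.34 and 0.21. The exception was KO DSS over KO naive in that class, at 0.54 against 0.58.

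Neighbouring variable probes were compared by position, and whether the probes of a pair read the same segment was not tested. Among 10 pairs of neighbouring variable probes whose centres lay within 300 bases, the log2 ratios of a pair differed by a median of 0.21 over the 4 comparisons and by 0.95 at most. Igkv3-4 and U18577 differed in direction for KO DSS over KO naive, at 0.54 and -0.41. The probes Igk-V21 and HQ015080 overlap by 49 bases, so their values are not independent. The kappa pair L09033 and AF468836, with 92 bases between centres and sequences that do not overlap, read 1.44 and 1.79 in KO naive. The same pair read 0.207 and 0.268 in KO DSS, 0.162 and 0.190 in WT DSS and 0.130 and 0.179 in WT naive. The log2 ratio of KO naive over WT naive was 3.46 for L09033 and 3.32 for AF468836. The JX120343 pair on the heavy locus read 0.0761 and 0.0832 in WT DSS, against 0.203 and 0.208 in WT naive.

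A few variable segments stood far above the other 3 pools in a single pool. By a rule chosen after the values were seen, at least 4-fold above all 3, this held among the 141 probes measured on 4 arrays for 1 in KO DSS and 3 in KO naive, and for 0 in WT DSS or WT naive. 2 of the 3 in KO naive are the neighbours L09033 and AF468836. Of the 24781 other probes measured on 4 arrays, 20 stood so in KO DSS, 9 in WT DSS, 9 in KO naive and 5 in WT naive. Another 6 variable probes passed the rule with dim values taken as measured. 5 of these 6 were well above background only in the pool where they were high, so they had to differ and are described by bounds.

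In KO DSS, the kappa probe S60946 read 2.41, against 0.226 in WT DSS, and 0.291 in KO naive, against 0.278 in WT naive. KO DSS was 10.7-fold above WT DSS and 8.28-fold above KO naive. Igkv2-112, JF690619 and EU568224 were well above background only in KO DSS, at 0.0491, 0.0764 and 0.0200, at least 4.35-fold, 6.76-fold and 1.77-fold above WT DSS.

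In WT DSS, the kappa probe DQ125310 read 0.272, against 0.00409, not well above background, in WT naive, at least 16.6-fold higher. It read 0.0192 in KO DSS and 0.0181 in KO naive. U29595 read 0.0195 in KO DSS, 0.0615 in WT DSS and 0.0449 in KO naive, with 0.00335, not well above background, in WT naive.

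In KO naive, the heavy probe X87746 read 0.952, against 0.106 in WT naive, 8.99-fold higher. With DSS it read 0.103 in KO and 0.0952 in WT, so that 3 pools were at the same level. L39085 was well above background only in KO naive, at 0.132, and JX120259 only in WT naive, at 0.103. For L39085, KO naive was at least 8.07-fold above WT naive. For JX120259, KO naive was at least 6.74-fold below WT naive.

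**Figure D4:**
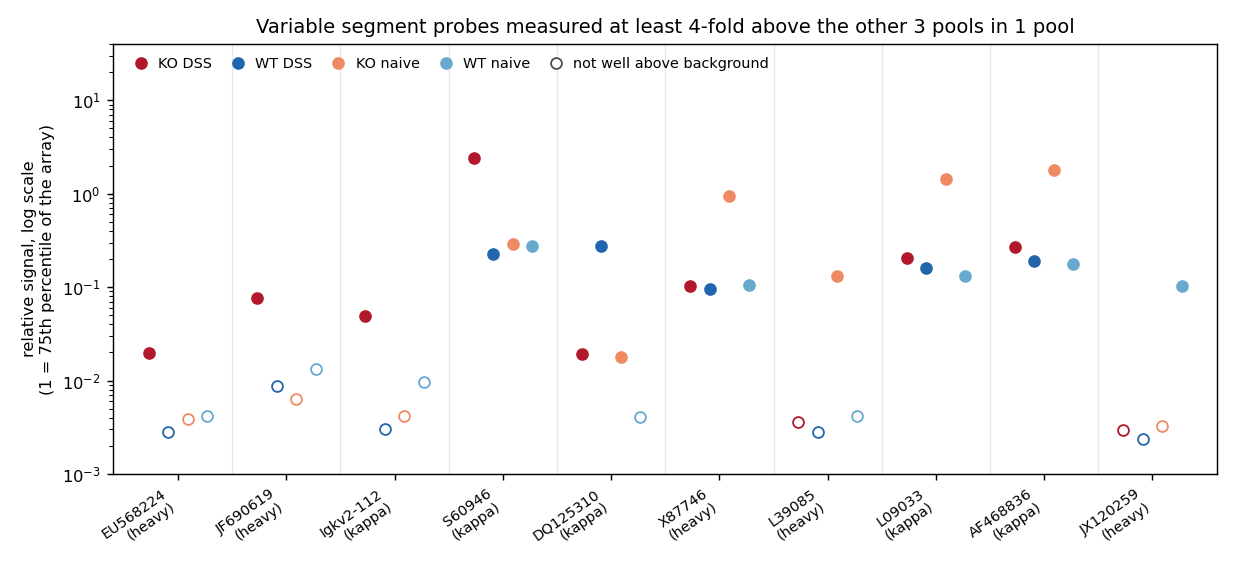
Relative signal (log scale, 1 = 75th percentile of the array) in each pool for the 10 variable segment probes whose value in 1 pool was at least 4-fold that of the other 3, with dim values (open) taken as measured. 4 probes are highest in KO DSS, 1 in WT DSS, 4 in KO naive and 1 in WT naive, and the neighbouring probes L09033 and AF468836 show the same layout.

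Other variable segments with wide differences between measured pools ran in both directions. X05391 (kappa) read 0.289 in KO DSS, 0.385 in WT DSS, 0.123 in KO naive and 0.0317 in WT naive, so that WT DSS was 12.2-fold above WT naive. Igkv9-129 read 0.130 in KO DSS, 0.0245 in WT DSS, 0.0712 in KO naive and 0.105 in WT naive, lowest in WT DSS. U41438 (kappa) was highest in WT DSS, at 1.81, against 0.696 in WT naive, with 0.649 in KO DSS and 0.772 in KO naive.

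Some segments differed from these in layout. AF144972 (kappa) read 0.265 in KO DSS, 0.0710 in WT DSS, 0.711 in KO naive and 0.180 in WT naive. It was 3.74-fold higher in KO with DSS and 3.95-fold higher without it, and lower with DSS in both genotypes, by 2.68-fold in KO and 2.54-fold in WT. X67198 (kappa) was lower with DSS in both genotypes, at 0.388 in KO DSS against 0.985 in KO naive and at 0.536 in WT DSS against 1.20 in WT naive. M32051 (heavy) turned direction, at 0.543 in KO DSS against 0.157 in WT DSS, and 0.176 in KO naive against 0.341 in WT naive.

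The genes in the windows that encode no immunoglobulin varied less. Of the 12 such probes measured on 4 arrays, 0 had both KO pools above both WT pools and 2 had both below. Of all probes so measured, 5.15% had both above and 8.94% both below. Zfp386, a zinc finger gene, read 3.02 in KO DSS, 3.25 in WT DSS, 2.95 in KO naive and 2.97 in WT naive in its brightest probe. Rpia, an enzyme of the pentose phosphate pathway, read 1.34 in KO DSS, 1.58 in WT DSS, 1.17 in KO naive and 1.20 in WT naive. Tmem121 read 0.0861 in KO DSS, 0.0687 in WT DSS, 0.0513 in KO naive and 0.0499 in WT naive, and its second probe read 0.0802, 0.0663, 0.0481 and 0.0503 in the same pools. Adam6b, Gm19843 and 4930427A07Rik stayed within 1.33-fold between KO and WT at either treatment. The remaining probe, of a predicted gene in the kappa window, was well above background only in WT DSS, at 0.0143. The unnamed probe brightest in the kappa window read 57.1 in KO DSS, 69.0 in WT DSS, 64.7 in KO naive and 55.3 in WT naive, and that of the heavy window 38.1, 46.8, 42.1 and 39.5 in the same pools.

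Among the genes that accompany antibodies, most B cell genes were higher in KO at both treatments, past 2-fold only with DSS. Of 15 listed, 14 were measured, and 10 of these were at least 2-fold higher in KO with DSS and 0 lower, with a median log2 ratio of 1.04, where 5.26% of all kept probes were 2-fold higher and 3.48% lower. Without DSS, 0 of the 14 were 2-fold higher or lower, where 1.70% of all kept probes were higher and 1.58% lower, and the median was 0.65. By direction alone, 14 were higher in KO with DSS and 13 without it. Of all kept probes, 11617 of 28797 were higher in KO with DSS and 15586 of 28786 without it. Ms4a1 (CD20) read 0.665 in KO DSS, 0.246 in WT DSS, 0.374 in KO naive and 0.212 in WT naive. Summed over the list, the relative signal was 5.89 in KO DSS, 3.12 in WT DSS, 4.95 in KO naive and 3.27 in WT naive. The part of B cell number in the immunoglobulin values was not tested.

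Most plasma cell genes were higher in KO as well, by less than the B cell genes. Of 12 measured, 1 was at least 2-fold higher in KO with DSS, where 5.26% of all kept probes were. This was Mzb1, a chaperone of antibody assembly, at 0.802 in KO DSS, 0.349 in WT DSS, 0.619 in KO naive and 0.414 in WT naive. The list's median KO over WT log2 ratio was 0.39 with DSS and 0.33 without it. With DSS, 9 of the 12 were higher in KO and 3 lower, and the counts were the same without it. Of all kept probes, 11617 of 28797 were higher in KO with DSS and 15586 of 28786 without it. Pou2af1 and Derl3 lay just below the 2-fold mark with DSS, at 1.99-fold and 1.89-fold. Jchain, which joins IgA and IgM into polymers and which the files name Igj, read 25.7 in KO DSS, 17.1 in WT DSS, 28.1 in KO naive and 19.8 in WT naive. Sdc1 and Xbp1 differed by 1.08-fold at most between KO and WT at either treatment. The list's summed signal, most of it from Xbp1 and Jchain, was 69.5 in KO DSS, 62.1 in WT DSS, 64.8 in KO naive and 57.3 in WT naive.

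Antibody receptors were higher with DSS in both genotypes. Of 10 measured genes of antibody transport and binding, 6 were at least 2-fold higher with DSS in KO and 5 in WT, and 0 were 2-fold lower in either. The 6 in KO include Fcer1a, which was well above background only in KO DSS and so had to differ. Of all kept probes, 6.07% were 2-fold higher and 6.48% lower with DSS in KO, and 4.21% higher and 5.91% lower in WT. Fcgr4, a receptor for IgG on myeloid cells, read 1.55 in KO DSS, 0.413 in WT DSS, 0.148 in KO naive and 0.106 in WT naive. Fcer1g, the signalling chain that pairs with Fcgr4, read 8.03 in KO DSS, 3.59 in WT DSS, 1.46 in KO naive and 1.34 in WT naive. Pigr, which carries IgA across the epithelium, read 24.5 in KO DSS, 23.0 in WT DSS, 41.1 in KO naive and 33.7 in WT naive, and was thus lower with DSS in both genotypes.

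Of 17 measured genes of B cell survival and homing, 5 were at least 2-fold higher in KO than in WT with DSS (5.26% of all kept probes) and 0 without (1.70% of all). Cxcl13, the chemokine that draws B cells into follicles, read 4.30 in KO DSS, 0.788 in WT DSS, 0.714 in KO naive and 0.584 in WT naive. Madcam1, the vascular ligand for gut homing, read 1.70 in KO DSS, 0.828 in WT DSS, 0.286 in KO naive and 0.306 in WT naive. Il6, which supports plasma cells, read 0.957 in KO DSS and 0.337 in WT DSS, and both naive values were not well above background. Ccl28 and Ccr10, the chemokine and receptor of IgA plasma cells in the colon, differed by 1.31-fold at most between KO and WT at either treatment.

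The machinery that joins and switches the segments was near level between KO and WT. Of 16 measured genes, 1 was at least 2-fold higher in KO with DSS, where 5.26% of all kept probes were. This was Vpreb3, at 0.543 in KO DSS, 0.195 in WT DSS, 0.315 in KO naive and 0.185 in WT naive. The list's median KO over WT log2 ratio was -0.05 with DSS and 0.03 without it. Rag1 and Rag2, the recombinase, were not well above background on any array.

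Markers of other cells were set beside these values. Of 8 T cell genes, 3 were at least 2-fold higher in KO with DSS (Cd5, Cd3d and Cd2), against 5.26% of all kept probes. In all, 6 of the 8 were higher in KO with DSS, against 11617 of 28797 kept probes. The median log2 ratio was 0.60 with DSS and 0.33 without it. Their summed signal, most of it from Cd4, Lck and Cd3e, was 4.66 in KO DSS, 4.62 in WT DSS, 4.30 in KO naive and 3.84 in WT naive. The red cell gene Hba-a1 read 22.0 in KO DSS, 7.01 in WT DSS, 2.42 in KO naive and 3.12 in WT naive. All 4 pancreas genes were lower in KO DSS than in WT DSS, with a summed signal of 7.05 in KO DSS, 23.0 in WT DSS, 6.56 in KO naive and 7.44 in WT naive. Cela1 made up nearly all of the naive sums, at 6.54 in KO naive and 7.42 in WT naive, with 2.27 in KO DSS and 6.19 in WT DSS. Amy2a5, Cpa1 and Prss2 were well above background only with DSS. Of these, Amy2a5, a pancreatic amylase, read 4.18 in KO DSS and 13.2 in WT DSS, while both naive pools lacked a signal well above background. The 8 colon epithelium genes summed to 327 in KO DSS, 396 in WT DSS, 461 in KO naive and 387 in WT naive. The part of T cells, blood or pancreas in the immunoglobulin values was not tested.

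**Figure D5:**
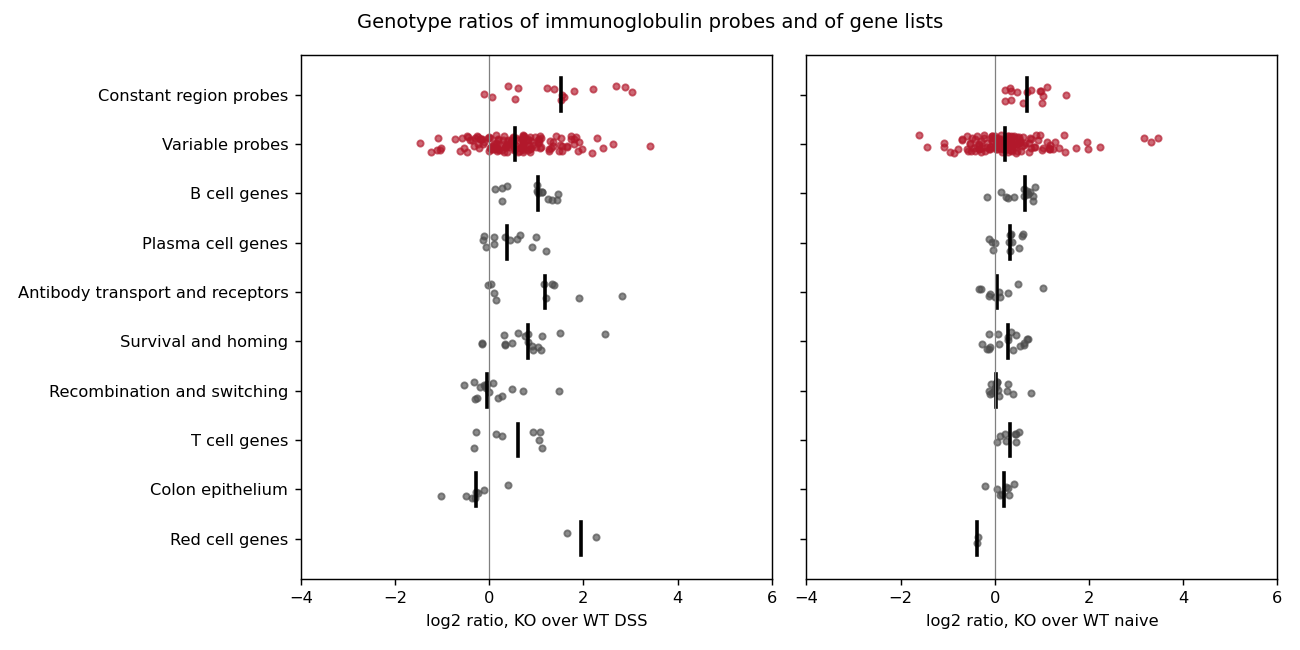
Log2 ratio of KO over WT with DSS (left) and without it (right) for the constant region and variable probes measured on 4 arrays and the members of 8 gene lists; each point is a probe or gene and black lines are medians. With DSS the median of the 15 constant region probes measured on 4 arrays is 1.53, the variable median 0.55 and the B cell median 1.04, while the recombination and switching list is centred at -0.05.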

How the data were processed

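Colon RNA of 4 pools was measured on 4 single-colour Agilent arrays of 1 slide. The deposited scanner files hold an intensity per spot, background-subtracted and detrended (processed signal) by the authors with Agilent Feature Extraction 11.5.1.1, per the submitters' processing notes. In the series table that the authors also deposited, this intensity stands divided by the array's 75th percentile. Coordinates are mm9, per the file headers. Here log2 processed signals were set relative to the 75th percentile of each array's non-control, non-outlier spots (129 to 136 outlier spots were left out per array). Spots of a probe were averaged on the log2 scale, and probes not well above background on any array were dropped, which left 28817. A probe counted as 2-fold higher or lower needed a log2 ratio of 1 and a signal well above background on the higher array. Probes just inside the detection rule (17 on 1 array) peaked at 0.0143 to 0.132, and the 52 just outside it at 0.00340 to 0.0189.

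The additive fit of genotype and treatment used limma 3.58.1 (R 4.3.3) with Benjamini-Hochberg adjustment and was tested on simulated data. No pool was replicated, so the residual of this fit was the difference in DSS response between the genotypes. Each p-value rests on that residual and on a variance that limma pools over probes, not on a spread between like pools. A probe whose DSS response differed between the genotypes therefore had a larger residual. Constant regions were assigned by file description, or by position and RefSeq gene order (GRCm38.p6, names and order only). Lists are represented by the brightest kept probe per gene. Named probes are constant regions, non-immunoglobulin genes, and the brightest and most different probes per locus and comparison, a selection of which is printed. Members and lists were chosen with earlier results of these data known. The number of arrays limits the precision.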

Additional observations from a re-analysis of the deposited data

Results flagged for a closer look

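For 5 of the 15 constant region probes measured on 4 arrays the DSS response ran in opposite directions in the 2 genotypes and differed by at least 1 on the log2 scale. The difference, KO minus WT, was 2.21 and 2.56 for the gamma 2a probes, 2.08 for the gamma polypeptide probe, 1.24 for the second gamma 1 probe and 1.35 for the lambda probe named Iglv1. In each of them the DSS pool was above the naive pool in KO and below it in WT. For the second gamma 1 probe the WT ratio of DSS over naive, -0.15, turned to 0.020 under quantile and 0.070 under normexp with quantile normalization. The same was seen in 39 of the 141 variable probes measured on 4 arrays, 29 of them higher with DSS in KO and 10 higher with DSS in WT, where 572 of all 24967 probes so measured (2.29%) met the same rule. With 1 array per pool these differences were not tested.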

How the results depend on the processing

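No paired analysis was possible because each group holds 1 array and the groups share no second replicate number. Leaving out an array leaves no residual degree of freedom. Of the main values recomputed under alternatives, 165 stayed near their reported value and 30 moved; the heavy median of WT DSS over WT naive, near 0, changed sign with the scaling. Of the ratios of single constant region probes, 93 moved and 307 did not: 39 of 68 moved under normexp with quantile normalization, 32 under quantile normalization and 17 under median scaling. The sign changed in 9, 9 and 3 of these, all with a reported log2 ratio of 0.25 at most in size. Median scaling, which moved the median of all kept probes for WT DSS over WT naive by 0.14, gave locus medians for that comparison of 0.077 for heavy (-0.06 as reported), 0.45 for kappa (0.31) and -0.21 for lambda (-0.35). Quantile normalization gave 0.036 for heavy and -0.49 for lambda. Background correction by normexp with quantile normalization gave -0.47 for lambda, with 12 probes at least 2-fold higher (21) and 9 lower (18) in WT DSS over WT naive. For KO over WT naive it gave 19 higher (34), 3 lower (9) and a lambda median of 0.71 (0.99), and for KO over WT DSS 6 lower (15). On probes measured on 4 arrays, WT DSS over WT naive had 10 higher and a kappa median of 0.20, KO over WT naive had 4 lower, and KO over WT DSS had 6 lower and a kappa median of 0.59 (0.40). Without a filter, the kappa median was 0.18 for WT DSS over WT naive, the heavy median 0.068 for KO DSS over KO naive (0.30) and 0.069 for KO over WT naive (0.18), and the lambda median 0.25 for KO over WT naive and 1.42 for KO over WT DSS (1.53). With the brightest probe per gene, lambda medians were -0.19 for WT DSS over WT naive, -0.0035 for KO DSS over KO naive (-0.19) and 0.65 for KO over WT naive. DSS calls by limma were 2 on probes measured on 4 arrays and 5 with trend and robust variances (0). Under alternatives chosen after seeing the data, immunoglobulin-named probes with both KO pools below both WT pools were 1 under median scaling, 1 under quantile and 2 under normexp with quantile normalization (0), while those with both above were 57 to 63 (63). Apart from fewer probes or another filter by construction, the cause was not tested. Signal over background limits the dim probes, which carry only bounds.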

Other observations

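Beyond the 3 windows, 10 kept probes are described in the files as immunoglobulin chains but placed elsewhere or nowhere in mm9. With DSS, 9 of the 10 were higher in KO than in WT (11617 of 28797 kept probes) and 4 at least 2-fold (5.26% of all kept probes). Both counts include AY172866, a heavy variable chain that was well above background only in KO DSS and so had to differ. Without DSS, 5 of the 10 were higher (15586 of 28786 kept probes) and 2 at least 2-fold (1.70% of all). AJ277812, a kappa variable chain, read 0.405 in KO DSS, 0.118 in WT DSS, 0.183 in KO naive and 0.139 in WT naive. A probe that the files name Adck1 but describe as an immunoglobulin kappa chain read 0.698 in KO DSS, 0.286 in WT DSS, 0.474 in KO naive and 0.198 in WT naive. AY081860, another kappa chain, was lowest in KO naive, at 0.161, against 0.331 in WT naive, with 0.489 in KO DSS and 0.353 in WT DSS.

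Among probes of the windows with no immunoglobulin name, LOC100862489 read 0.324 in KO DSS, 0.271 in WT DSS, 0.682 in KO naive and 0.190 in WT naive in its first probe. NAP023696-001 was well above background only with DSS, at 0.0642 in KO DSS and 0.0380 in WT DSS.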
